A study of Mus musculus with 21 samples.

Results

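The guidance genes of the mouse are the Eph receptors and their ephrin ligands, the semaphorins with their plexin and neuropilin receptors, the Slits with their Robo receptors, and the netrins. Members were taken by gene symbol (Epha and Ephb, Efna and Efnb, Sema, Plxna to Plxnd, Nrp1 and Nrp2, Slit1 to Slit3, Robo1 to Robo4, and Ntn followed by a digit), which gave 65 of the 22050 entries of the expression table and 63 distinct symbols, since Ntn5 holds 3 entries. Membership was set by symbol and not by a measured value, although earlier results of these data were known when the families were chosen.

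RNA was sequenced from GFP+ keratinocytes of the back skin of mice of a mixed FVB, C57Bl and 129sv background, in 4 libraries of genotype K5-rtTA/tet-GFP/tet-p16 (p16 cells) and 4 of genotype K5-rtTA/tet-GFP (control cells). Doxycycline was given to all mice over 6 months, starting when they were 3 weeks old, and all carried the rtTA activator, driven by the keratin 5 promoter of basal epidermal cells and the follicle, together with the inducible GFP, so that the groups differ in the inducible human p16 transgene. Each library came from about 80000 sorted cells pooled from 3 mice, after cells stained for CD140a, CD45 or CD31 (fibroblast, immune and endothelial markers) had been gated out. The methods give 3 independent experiments without naming the experiment of each library, so p-values measure the spread between these pools, part of which may be technical.

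Eph receptors are receptor tyrosine kinases that bind ephrins on neighbouring cells, and contact carries signals into both cells, which sets boundaries, adhesion and repulsion. Semaphorins, secreted or bound to the membrane, act through plexins, with neuropilins as co-receptors for most class 3 members, and remodel the actin cytoskeleton. Slits act on Robo receptors, and netrins on the DCC and UNC5 receptors or, for netrin-4, on laminins. In skin these families are known for roles in keratinocyte adhesion and differentiation, in the hair follicle, and in guiding nerves and vessels.

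Reads on genes ranged from 1760953 to 3414362 per control library and from 2884544 to 3202975 per p16 library, and a count of 3 reads, taken as the floor, was worth 2.23 to 4.58 normalized counts. Normalized counts are reads per gene divided by a size factor per library, and they are not scaled by gene length. The summed basal keratinocyte markers ran from 31880.9 to 52881.9 in control and from 32055.6 to 36674.6 in p16 libraries, so markers of the labelled cell type were abundant in every library. Sequence of the human p16 transgene was listed at 0.7, 1.3, 2.5 and 1.5 normalized counts in control replicates 1 to 4 and at 10.1, 16 and 7.4 in p16 replicates 2 to 4, but at only 1.6 in the library labelled p16 replicate 1, which lies within the control range. Normalized counts of GFP itself ran from 4152.0 to 5912.6 in control and from 3161.8 to 3978.8 in p16 libraries, without overlap. In the test described below GFP was called lower in p16 cells (log2 fold change -0.58, limma adjusted p = 0.0167). For replicate 3 of each group the labels describe the library preparation in other words than for the rest. Results that rest on those libraries are given with and without them.

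Of the 65 entries, 10 had no read in any library (Epha3, Epha6, Epha8, Sema3g, Sema4f, Plxnb3, Robo4 and the 3 entries of Ntn5), and another 10 never exceeded 3 reads. The remaining 45 genes passed the filter of a mean normalized count of at least 1 and entered the test, limma on log2(normalized count + 1) across all 12782 features that passed it, with Benjamini-Hochberg adjustment. In p16 cells 1 of the 45, Ephb4, was called higher and 4, Sema3e, Efnb2, Efna5 and Sema6a, were called lower at an adjusted p under 0.05. That is 11.1% of the tested members, beside 3.86% of all features tested (1.24% called higher and 2.61% called lower). The 4 control and 4 p16 values did not overlap for 2 members that were higher and 7 that were lower, 20% of the 45 beside 9.83% of all features (4.19% higher and 5.63% lower). With edgeR and DESeq2 on the recovered reads 1 and 2 members were called higher and 4 and 4 lower, beside 1.5% and 1.52% of all features tested for higher, 2.79% and 2.85% for lower, and 4.29% and 4.38% for either direction. Inside a log2 fold change of 0.5 in size lay 34 of the 45, or 75.6%, beside 83.6% of all features, and the median log2 fold change was -0.06, against -0.003 over all features.

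**Figure D1:**
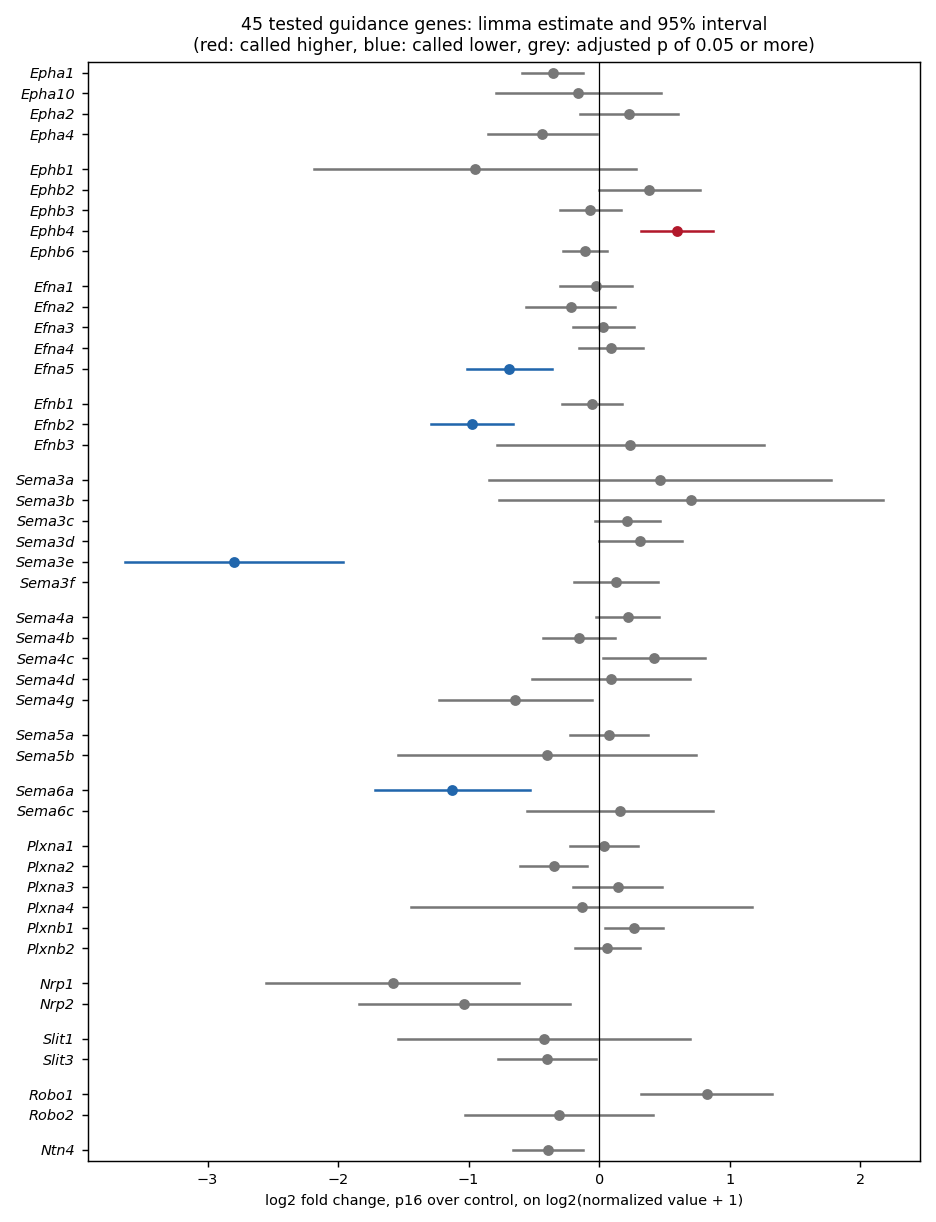
Log2 fold change of p16 over control cells (horizontal axis, on the log2(normalized count + 1) scale) for the 45 tested guidance genes, grouped by class, with points for the limma estimate and lines for its 95% interval. Ephb4 (red) was called higher and Sema3e, Efnb2, Efna5 and Sema6a (blue) lower, with the estimate of Sema3e farthest from 0 at -2.79.

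The ephrins, the ligands of the Eph receptors, held 2 of the 4 genes that fell. Efnb2, a transmembrane ephrin that binds Ephb4 and other EphB receptors (chr8:8617434-8661242, minus strand, GRCm38), had normalized counts of 777.4, 709.7, 583.8 and 554.6 in control replicates 1 to 4 and of 324.6, 416.1, 352.0 and 252.4 in the libraries labelled p16 replicates 1 to 4. The groups did not overlap, and the lowest control library stood well above the highest p16 library. Mean counts of 656 ± 105 in control and 336 ± 67.8 in p16 cells (SD, n = 4 each) gave a log2 fold change of -0.97 (SE 0.15, limma adjusted p = 0.00175). Over 18 alternative settings the limma, edgeR or DESeq2 adjusted p of Efnb2 stayed at or below 0.0115.

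Efna5, a lipid-anchored ephrin that binds EphA receptors (chr17:62604184-62881317, minus strand), gave 277.4, 172.0, 297.3 and 229.2 in control cells and 144.7, 152.2, 163.1 and 133.2 in p16 cells. Again the groups did not overlap, but control replicate 2 lay near the p16 libraries, which were close together. The means of 244 ± 55.9 and 148 ± 12.6 (SD, n = 4 each) differ by a log2 fold change of -0.69 (SE 0.15, limma adjusted p = 0.0209). The call was lost in 3 of the 8 fits without a library, with a highest limma adjusted p of 0.0788 without control replicate 1, and 0.0661 without the library labelled p16 replicate 1 and 0.0949 without replicate 3 of both groups.

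The other ephrins were not called. Efna3 and Efnb1, which had the largest read counts of their classes, ran from 791.8 to 1010.6 and from 800.1 to 1013.8 in control cells and from 797.2 to 985.0 and from 790.1 to 1019.7 in p16 cells. Both overlapped widely between the groups, with log2 fold changes of 0.03 (95% interval -0.20 to 0.26) and -0.06 (95% interval -0.29 to 0.17). Exons of Efna3 overlap Gm15998 on the opposite strand. Efna1, Efna2 and Efna4 had limma adjusted p values of 0.958, 0.571 and 0.774, and Efnb3 was near the floor, between 0.9 and 4.9 normalized counts. As a description chosen after the values were seen, Efnb2 relative to Efnb1 within a library had a mean log2 ratio, with 1 added to each normalized count, of -0.52 in control and -1.43 in p16 cells, and Efna5 relative to Efna3 of -1.89 and -2.61.

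Among the Eph receptors Ephb4, the main receptor of ephrin-B2 (chr5:137350109-137378669, plus strand), was called higher. Its normalized counts were 163.9, 134.8, 143.7 and 148.2 in control cells and 228.7, 174.1, 240.3 and 257.4 in p16 cells. Every p16 library lay above every control library, with p16 replicate 2 nearest to them. Means of 148 ± 12.2 and 225 ± 36.0 (SD, n = 4 each) gave a log2 fold change of 0.59 (SE 0.13, limma adjusted p = 0.0191). The call held in 4 of the 8 fits without a library, and the limma adjusted p was 0.0645 without the library labelled p16 replicate 1 and 0.129 without replicate 3 of both groups. Exons of Ephb4 overlap those of Zan on the opposite strand, whose counts did not exceed 1.6 in any library.

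No other Eph receptor was called. Ephb6, whose kinase domain is inactive and which had the largest read count of all members, gave 1504.4, 1491.3, 1467.4 and 1433.1 in control and 1402.4, 1389.0, 1305.2 and 1374.7 in p16 cells. These groups did not overlap either, but the difference was small, a log2 fold change of -0.11 (SE 0.08, limma adjusted p = 0.578, exact two-sided permutation p = 0.0286, the smallest that 4 libraries against 4 can give). Within a library Ephb4 relative to Ephb6 had a mean log2 ratio of -3.31 in control and -2.61 in p16 cells, a comparison chosen after the values were seen.

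Epha1, a receptor known from epithelia such as the epidermis, read 175.8, 188.7, 178.7 and 172.6 in control and 127.9, 135.9, 134.8 and 161.2 in p16 cells. The values did not overlap, with p16 replicate 4 closest to the control libraries, and the log2 fold change was -0.36 (SE 0.11, limma adjusted p = 0.0947). Its exons overlap those of Zyx on the opposite strand, which ran from 169.4 to 261.4 in control and from 143.9 to 188.3 in p16 cells (limma adjusted p = 0.272), and whether the counting used strand is not stated. Epha4, which binds ephrins of both classes, ran from 165.0 to 256.7 in control and from 93.7 to 188.9 in p16 cells (log2 fold change -0.44, limma adjusted p = 0.285). Those groups overlapped, and p16 replicate 4 alone lay far below the controls. Epha2, Ephb2 and Ephb3 had log2 fold changes of 0.23, 0.38 and -0.07 with limma adjusted p values of 0.599, 0.320 and 0.840, Epha10 and Ephb1, at no more than 15.3 normalized counts, had 0.868 and 0.465, and Epha5 and Epha7 never exceeded 3 reads.

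**Figure D2:**
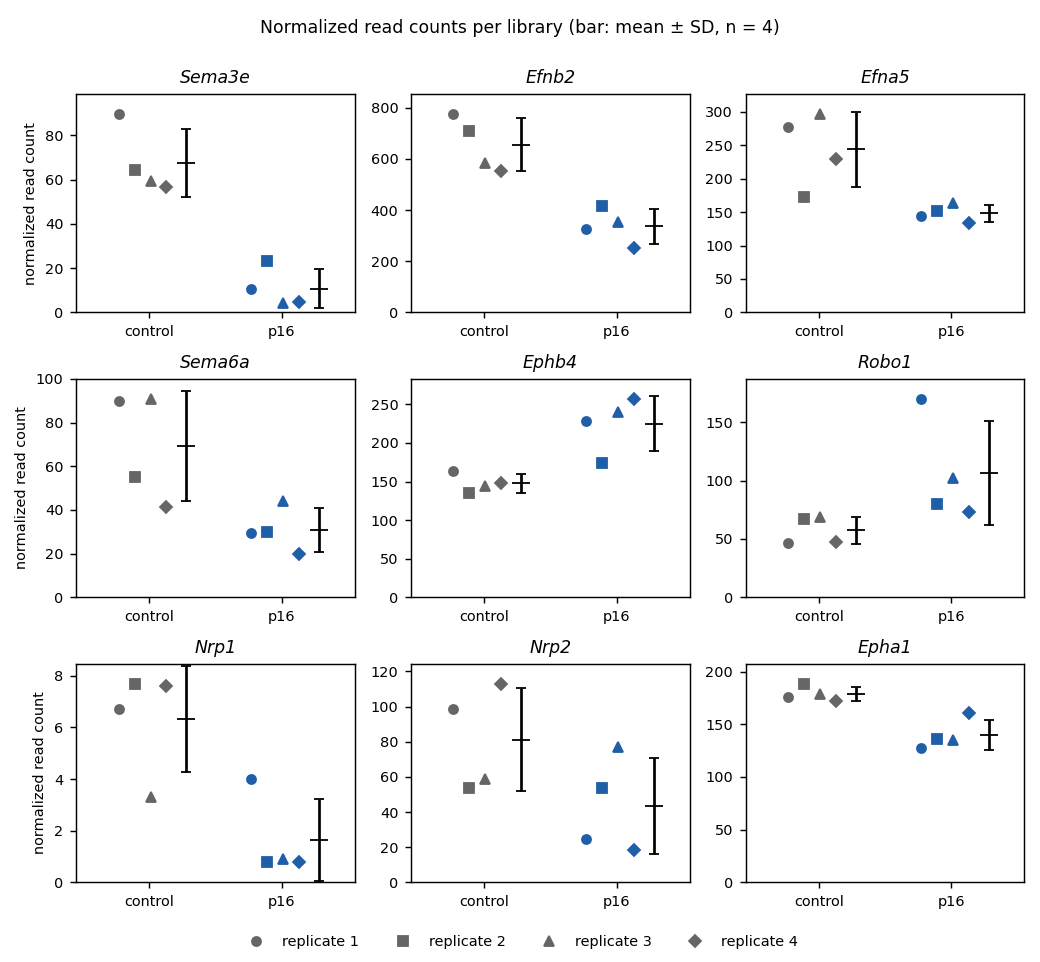
Normalized read counts (vertical axes, linear from 0) of 9 guidance genes in the 4 control (grey) and 4 p16 (blue) libraries, with a marker shape for each replicate number and bars for the mean ± SD. Sema3e, Efnb2, Efna5, Ephb4, Robo1 and Epha1 do not overlap between the groups, whereas Sema6a, Nrp1 and Nrp2 do.

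Set beside each other, the ligand Efnb2 and the receptor Ephb4 moved in opposite directions in the same libraries. The log2 ratio of Efnb2 to Ephb4 was 2.24, 2.39, 2.02 and 1.90 in control cells and 0.50, 1.25, 0.55 and -0.03 in p16 cells. In control libraries Efnb2 reads were in clear excess over those of Ephb4, and in p16 replicate 4 both genes gave nearly equal normalized counts. This holds for Ephb4 alone. Ephb3, another EphB receptor, ran from 612.8 to 881.5 in control and from 657.9 to 749.2 in p16 cells, above Ephb4 in every library. This pair was chosen after the values were seen, so no test is attached, and reads of different genes are not scaled by length.

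The semaphorins held the other 2 genes that fell. Sema3e, a secreted class 3 semaphorin that binds plexin-D1 without a neuropilin (chr5:14025276-14256689, plus strand), gave 89.8, 64.2, 59.3 and 56.5 normalized counts in control cells and 10.4, 23.4, 4.4 and 4.9 in p16 cells. All p16 libraries were far below all controls, and p16 replicate 2 was the highest of them. The means were 67.5 ± 15.2 and 10.8 ± 8.84 (SD, n = 4 each), 6.26-fold lower in p16 cells, and the log2 fold change was -2.79 (SE 0.39, limma adjusted p = 0.000858). Its adjusted p stayed at or below 0.00995 over the 18 alternatives. Plxnd1, its receptor, did not exceed 3 reads in any library, so no difference in it was detectable at this depth.

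Sema6a, a transmembrane semaphorin that binds plexin-A2 and plexin-A4, gave 89.8, 55.2, 91.0 and 41.3 in control and 29.6, 29.7, 44.3 and 19.7 in p16 cells. The groups overlapped, since p16 replicate 3 lay above control replicate 4. The means of 69.3 ± 25.0 and 30.8 ± 10.1 (SD, n = 4 each) gave a log2 fold change of -1.12 (SE 0.28, limma adjusted p = 0.0354, exact two-sided permutation p = 0.0571). This call was the least stable of the 5, as it held in 2 of the 8 fits without a library, reached an adjusted p of 0.134 when control replicate 1 was dropped, and gave 0.0917 without the library labelled p16 replicate 1 and 0.0771 without replicate 3 of both groups.

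The rest of the semaphorins passed no threshold after adjustment. Sema3c, the class 3 member with the largest read count, ran from 259.7 to 350.4 in control and from 319.3 to 415.8 in p16 cells. Its log2 fold change of 0.22 (95% interval -0.03 to 0.46) was in contrast to that of its relative Sema3e. Sema3d and Sema3f had log2 fold changes of 0.31 and 0.13 with limma adjusted p values of 0.316 and 0.756. Within a library Sema3e relative to Sema3c had a mean log2 ratio of -2.22 in control and -5.23 in p16 cells. Of the class 4 members, which are membrane proteins, Sema4c ran from 37.2 to 56.5 in control and from 47.7 to 71.2 in p16 cells (log2 fold change 0.42, limma adjusted p = 0.272), and its exons overlap D430040D24Rik on the opposite strand. Sema4g ran from 16.7 to 41.8 and from 14.0 to 16.8 (log2 fold change -0.64, limma adjusted p = 0.262), with control replicate 3 the highest. Sema4b and Sema5a, with the largest read counts of classes 4 and 5, had log2 fold changes of -0.15 and 0.07. Sema4a, Sema4d, Sema5b and Sema6c had limma adjusted p values of 0.376, 0.926, 0.795 and 0.885, and Sema3a and Sema3b, with up to 4 and 7 reads, had 0.792 and 0.698. Sema6b and Sema6d never exceeded 3 reads, and Sema7a, the only class 7 member, had no more than 1 read in any library.

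Of the plexins, the semaphorin receptors, all 6 tested members lay inside a log2 fold change of 0.5 in size, and none was called in limma, with 1 higher and 1 lower at an unadjusted p under 0.05. Plxna1, the plexin with the largest read count, ran from 382.8 to 553.1 in control and from 462.0 to 483.5 in p16 cells (log2 fold change 0.04, 95% interval -0.22 to 0.30). Exons of Plxna1 overlap Gm26811 on the opposite strand. Plxna2, a receptor of Sema6a, gave 124.6, 111.7, 109.4 and 103.9 in control and 95.9, 82.8, 86.0 and 87.2 in p16 cells. Its groups did not overlap, at a log2 fold change of -0.35 (SE 0.12, limma adjusted p = 0.145). Plxnb1, the receptor of Sema4d, ran from 264.1 to 314.7 in control and from 311.5 to 386.4 in p16 cells, a small overlap (log2 fold change 0.26, limma adjusted p = 0.214), and its exons overlap Gm7628 on the opposite strand. Plxnb2, Plxna3 and Plxna4 had limma adjusted p values of 0.874, 0.741 and 0.952, and Plxnc1 never exceeded 3 reads.

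Both neuropilins had lower means in p16 cells, but neither was called. Nrp1, a co-receptor of class 3 semaphorins and of VEGF, gave 6.7, 7.7, 3.3 and 7.6 in control cells and 4.0, 0.8, 0.9 and 0.8 in p16 cells. Apart from the library labelled p16 replicate 1, with 5 reads, every p16 library held 1 read, which is under the floor. The log2 fold change was -1.58 (SE 0.45, limma adjusted p = 0.0733), and without that library the adjusted p was 0.0403. Exons of Nrp1 overlap Mir1903 on the same strand. Nrp2 gave 98.7, 53.9, 58.5 and 113.1 in control and 24.8, 53.9, 77.1 and 18.1 in p16 cells, which overlap widely, since p16 replicate 3 exceeded control replicates 2 and 3. Its log2 fold change was -1.03 (SE 0.38, limma adjusted p = 0.176), and 0.0483 without p16 replicate 3.

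In the Slit and Robo families Robo1, a Slit receptor (chr16:72308306-73046095, plus strand), gave 46.7, 66.7, 68.5 and 47.4 in control and 170.3, 80.4, 102.0 and 73.2 in p16 cells. The groups did not overlap, but the margin between control replicate 3 and p16 replicate 4 was narrow, and the library labelled p16 replicate 1 was the highest by far. Means of 57.3 ± 11.9 and 106 ± 44.3 (SD, n = 4 each) gave a log2 fold change of 0.82 (SE 0.23, limma adjusted p = 0.0733, exact two-sided permutation p = 0.0286). DESeq2 on the recovered reads gave an adjusted p of 0.0249, and limma without the library labelled p16 replicate 1 gave 0.197. Slit3, a secreted Robo ligand, ran from 51.2 to 84.0 in control and from 43.2 to 59.2 in p16 cells (log2 fold change -0.40, limma adjusted p = 0.271). The log2 ratio of Slit3 to Robo1, chosen after the values were seen and not tested, ran from -0.04 to 0.81 in control and from -1.95 to -0.30 in p16 cells. Robo2 overlapped between the groups (limma adjusted p = 0.737), Slit1 was near the floor (limma adjusted p = 0.774), and Slit2 and Robo3 never exceeded 3 reads.

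Netrins were represented by Ntn4, which binds laminins of the basement membrane. It gave 114.2, 92.4, 104.4 and 96.3 in control and 84.0, 74.2, 77.1 and 73.2 in p16 cells, without overlap. The log2 fold change was -0.39 (SE 0.13, limma adjusted p = 0.114, exact two-sided permutation p = 0.0286). Ntn1 did not exceed 3 reads in any library.

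At an unadjusted limma p under 0.05, 4 members were higher (Ephb4, Robo1, Plxnb1 and Sema4c) and 12 lower (Sema3e, Efnb2, Efna5, Sema6a, Nrp1, Epha1, Ntn4, Plxna2, Nrp2, Sema4g, Slit3 and Epha4), 35.6% of the 45 beside 15.9% of all features tested (7.02% higher and 8.93% lower). Means were lower in p16 cells for 24 and higher for 21 of the 45 members, which is near an even split. Of those with a log2 fold change of at least 0.5 in size, 3 were higher (6.67% of the 45, beside 6.69% of all features) and 8 lower (17.8%, beside 9.73%).

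**Figure D3:**
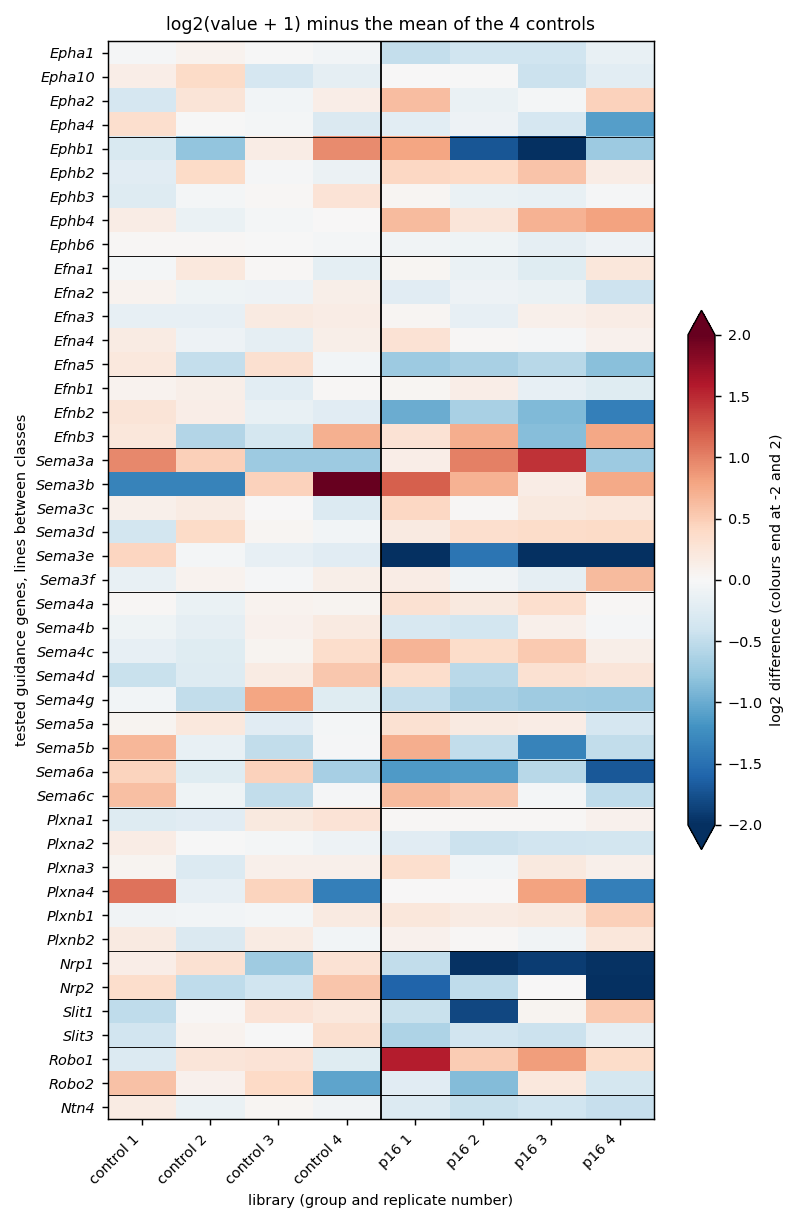
Each of the 45 tested guidance genes (rows, with lines between classes) in each library (columns), coloured by its log2(normalized count + 1) minus the mean of the 4 control libraries. Sema3e and Efnb2 are blue in every p16 library and Ephb4 red, while Nrp2 and Sema6a differ from library to library, and genes near the floor such as Ephb1, Sema3a and Sema3b vary within both groups.

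**Figure D4:**
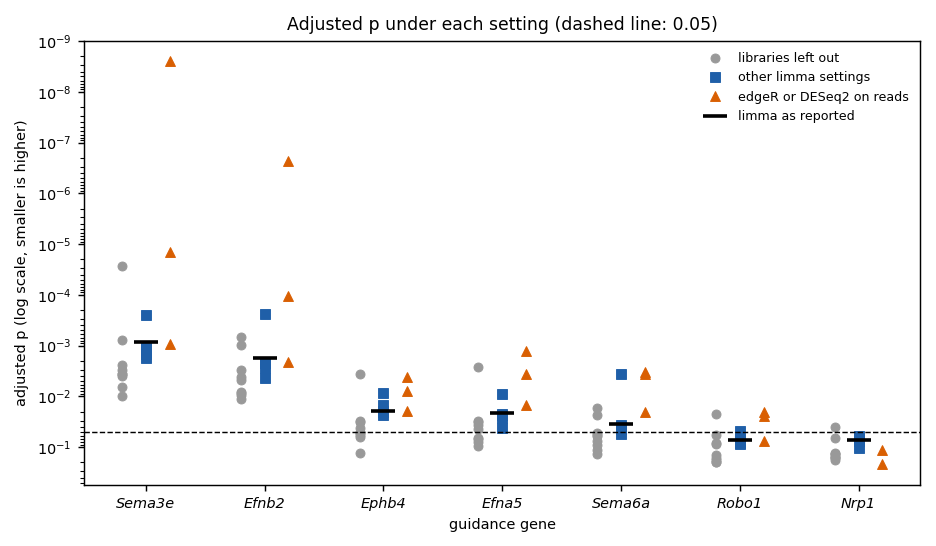
Adjusted p (vertical axis, log scale, smaller values higher) of 7 guidance genes with limma as reported (black bars), in fits with libraries left out (grey), in other limma settings (blue) and in edgeR or DESeq2 on recovered reads (orange), with the threshold of 0.05 dashed. Sema3e and Efnb2 stay below 0.05 in every setting shown, whereas Ephb4, Efna5, Sema6a, Robo1 and Nrp1 fall on both sides of it.

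RefSeq promoter sequences (GRCm38.p6, from 250 bases before to 50 after a start site) were found for 55 of the 63 member symbols, 71 promoters in all. The promoters of the called genes Sema3e, Efnb2, Ephb4 and Efna5 are shown, since Efnb2 and Ephb4 moved apart and Sema3e fell farthest. That of the other called gene, Sema6a, is not shown. Each is written 5′ to 3′ on the strand of its gene, and capitals mark matches to 5 motifs on either strand. The motifs searched were the core bound by TCF and LEF factors, spelled CTTTGA, then the AP-1 site of Fos and Jun factors, spelled TGANTCA, then the box of Sp1-like factors known as the GC box, spelled GGGCGG, then the box of the NF-Y factor, which is spelled and called CCAAT, and the box near many start sites known as the TATA box, spelled TATAAA.
Sema3e, chr5:14025026-14025325, plus strand: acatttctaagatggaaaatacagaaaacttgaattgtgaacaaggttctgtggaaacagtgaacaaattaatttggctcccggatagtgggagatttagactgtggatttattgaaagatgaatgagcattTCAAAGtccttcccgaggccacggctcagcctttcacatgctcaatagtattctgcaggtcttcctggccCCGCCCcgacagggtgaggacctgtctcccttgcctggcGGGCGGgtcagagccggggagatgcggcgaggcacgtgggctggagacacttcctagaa
Efnb2, chr8:8661193-8661492, minus strand: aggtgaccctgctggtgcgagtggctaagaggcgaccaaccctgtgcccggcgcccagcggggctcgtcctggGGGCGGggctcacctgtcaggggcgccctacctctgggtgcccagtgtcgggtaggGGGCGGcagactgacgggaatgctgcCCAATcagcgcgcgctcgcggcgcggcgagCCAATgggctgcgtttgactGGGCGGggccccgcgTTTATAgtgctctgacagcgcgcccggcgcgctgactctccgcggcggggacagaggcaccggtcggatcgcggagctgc
Ephb4, chr5:137349859-137350158, plus strand: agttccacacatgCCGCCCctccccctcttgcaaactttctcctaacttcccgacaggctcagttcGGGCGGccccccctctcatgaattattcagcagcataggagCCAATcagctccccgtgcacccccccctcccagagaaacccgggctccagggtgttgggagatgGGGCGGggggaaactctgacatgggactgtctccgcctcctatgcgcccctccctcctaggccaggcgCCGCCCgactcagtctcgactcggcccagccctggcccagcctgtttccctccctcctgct
Efna5, chr17:62881268-62881567, minus strand: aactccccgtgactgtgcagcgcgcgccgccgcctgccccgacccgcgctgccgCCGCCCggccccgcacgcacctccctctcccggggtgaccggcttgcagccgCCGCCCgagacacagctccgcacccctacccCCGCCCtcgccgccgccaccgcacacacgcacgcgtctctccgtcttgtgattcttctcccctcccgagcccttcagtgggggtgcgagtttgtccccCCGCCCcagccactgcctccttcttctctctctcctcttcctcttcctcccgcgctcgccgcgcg
The Sema3e promoter holds the only TCF/LEF core of the 4, on the strand opposite to the printed one, and 2 GC boxes. That of Efnb2 holds 3 GC boxes, 2 CCAAT boxes and, on the opposite strand, 1 TATA box, while Ephb4 has 4 GC boxes and 1 CCAAT box, and Efna5 has 4 GC boxes. None of these matches overlaps another, and no AP-1 site was found in the 4 windows. Over the 71 member promoters a GC box was found in 70.4%, beside 35.7% of the 32851 promoters in RefSeq, and a TCF/LEF core in 7.04%, beside 16%. An AP-1 site, a CCAAT box and a TATA box were found in 4.23%, 29.6% and 2.82% of member promoters, beside 7.81%, 37.4% and 13.6% of all promoters. Member promoters were also richer in G and C, with a median of 64% and 18 CpG dinucleotides, beside 52.7% and 7 over all promoters. The part of this difference in base composition in the motif shares was not tested. Letters that match are a description and not evidence of binding.

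The partners through which these receptors and ligands act were taken from 5 lists of 68 genes, 59 of which were tested. Of the 59, 2 were called higher and 4 lower, beside the same 1.24% and 2.61% of all features, and 53 were not called. The median of the 59 log2 fold changes was -0.02. By list, 1 of 19 tested Eph and ephrin partners was called higher and 1 lower, 1 of 21 semaphorin and plexin partners higher and 1 lower, 1 of 10 Slit and Robo partners lower, 1 of 4 netrin and RGM genes lower, and none of 6 FLRT and latrophilin genes in limma, although Adgrl2 had an unadjusted p under 0.05. Dpysl3, a collapsin response mediator protein that acts in semaphorin signalling on the cytoskeleton, gave 156.5, 215.6, 144.5 and 171.1 in control and 362.2, 423.2, 569.2 and 292.7 in p16 cells. It did not overlap between the groups and had a log2 fold change of 1.23 (SE 0.18, limma adjusted p = 0.00112). Farp1, a guanine nucleotide exchange factor that binds class A plexins, gave 54.9, 24.4, 31.7 and 44.3 in control and 11.2, 13.3, 14.2 and 7.4 in p16 cells. Here too the groups stood apart, at a log2 fold change of -1.64 (SE 0.29, limma adjusted p = 0.00469). Both calls held in all 8 fits without a library.

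The other called partners changed less. Rin1, which links Eph receptors to endocytosis, ran from 352.9 to 432.5 in control and from 472.6 to 548.9 in p16 cells (log2 fold change 0.42, limma adjusted p = 0.0222). Nck2, an adaptor downstream of Eph receptors and ephrin-B, ran from 88.6 to 116.9 and from 60.8 to 75.2 (log2 fold change -0.62, limma adjusted p = 0.0237). Sdc1, a heparan sulfate proteoglycan of the keratinocyte surface, ran from 2515.6 to 3502.0 and from 2028.7 to 2464.2 (log2 fold change -0.48, limma adjusted p = 0.0322), and Rgma, a ligand of the netrin receptor neogenin, from 308.0 to 426.3 and from 215.4 to 306.8 (log2 fold change -0.53, limma adjusted p = 0.0405). None of these 4 overlapped between the groups, but in fits without a library the calls held in 3 (Rin1), 5 (Nck2), 3 (Sdc1) and 2 (Rgma) of 8. Without replicate 3 of both groups their limma adjusted p values, in that order, were 0.0703, 0.187, 0.216 and 0.164, and without the library labelled p16 replicate 1 they were 0.0750, 0.0484, 0.113 and 0.142. Fyn, a Src-family kinase recruited by ephrins and plexins, was not called in limma (log2 fold change -0.96, limma adjusted p = 0.0512) and was at the threshold in edgeR (adjusted p = 0.0499848). Unadjusted p values under 0.05 were also found for Pard6b and Srgap2, with higher means, and for Grip1, Adgrl2, Plxdc2, Dag1 and Enah, with lower means, none of which passed after adjustment.

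Markers of other parts of the skin moved with the groups, and in bulk samples fewer cells of a type and less RNA per cell cannot be told apart. The 6 sebaceous gland genes were all called lower, with summed counts of 1309.0 to 1484.1 in control and 362.2 to 609.0 in p16 libraries, and each of these genes had reads in both groups. Of the 7 hair-follicle stem cell genes 5 were called lower, with sums of 3028.6 to 3781.8 against 1417.4 to 2431.4, among them Cd34, which ran from 121.9 to 238.9 against 8.0 to 16.4. The 5 genes of the inner hair layers summed to 78.3 to 142.0 against 15.6 to 48.7, with 1 called lower, and the 6 melanocyte genes to 126.0 to 503.0 against 48.4 to 137.4, with 2 called lower. Their part in the lower counts of Sema3e, Efnb2, Efna5, Sema6a and the neuropilins was not tested.

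Set beside these sums library by library, guidance genes matched their order in part. In p16 replicate 2, which had the highest sebaceous sum of the p16 libraries (609.0), Sema3e also had its highest p16 value (23.4), and the sebaceous genes Cidea and Pparg read 21.1 and 21.9 there, against 4.0 to 8.2 and 3.2 to 10.6 in the other p16 libraries. The library labelled p16 replicate 1 had the lowest sebaceous sum (362.2) but more Sema3e (10.4) than p16 replicates 3 and 4 (4.4 and 4.9, with sums of 409.6 and 404.5), and control replicate 3 had the highest sum (1484.1) with Sema3e at 59.3. In p16 replicate 4, with the lowest sum of follicle stem cell genes (1417.4), Sema6a (19.7), Nrp2 (18.1), Epha4 (93.7) and Efnb2 (252.4) were at their lowest. Among the controls, however, Sema6a was lowest (41.3) in replicate 4, where the follicle sum was near its top (3778.3). These are descriptions of single libraries, and with 4 libraries per group no relation within p16 cells was tested.

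**Figure D5:**
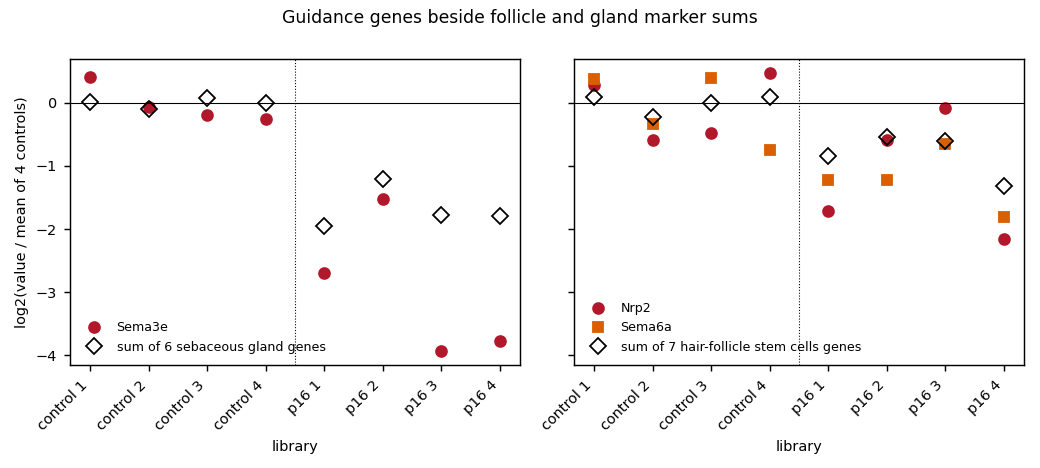
Log2 of each library's value over the mean of the 4 controls (vertical axis) for Sema3e beside the sum of 6 sebaceous gland genes (left) and for Nrp2 and Sema6a beside the sum of 7 hair-follicle stem cell genes (right), with 1 column per library. Sema3e and the sebaceous sum are both lower in all p16 libraries and least so in p16 replicate 2, and Nrp2, Sema6a and the follicle sum are lowest in p16 replicate 4, while the order of the other libraries differs between genes and sums.

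The gates were set to remove endothelial cells, fibroblasts and immune cells. Of the 8 endothelial genes Cdh5 and Emcn had no read in any library, and the sums ran from 10.3 to 19.2 in control and from 11.8 to 17.6 in p16 libraries. Fibroblast genes summed to 10.8 to 27.3 in control and to 42.8 to 220.7 in p16 libraries, and 1 of the 5 tested was called higher. That gene, Dcn, ran from 2.6 to 10.7 in control and from 36.2 to 203.0 in p16 libraries (log2 fold change 3.82, limma adjusted p = 0.000233), while Lum had no read. Dcn made up most of the sum in each p16 library. Of the 5 tested, 3 had higher and 2 lower estimates in p16 cells. Col1a2 ran from 4.2 to 17.8 in control and from 1.6 to 3.3 in p16 libraries, without overlap (log2 fold change -1.51, limma adjusted p = 0.0571). The part of endothelial cells, fibroblasts and immune cells in the guidance gene values was not tested. T-cell genes summed to 7.6 to 18 against 4.5 to 14.1, and Langerhans and myeloid genes to 108.5 to 125.8 against 112.6 to 156.9. Lymphatic genes summed to 25.3 to 44.3 against at most 25.5. Of types outside the gates, Schwann cell genes summed to 187.1 to 215.8 against 163.2 to 214.3. Pericyte and smooth muscle genes summed to 9.2 to 11.7 against 4.9 to 11.8. The 7 genes of differentiated keratinocytes summed to 6695.3 to 9130.3 against 6920.7 to 10327.9, but 1 was called higher and 2 lower. Lor was higher, at 47.5 to 152.8 against 179.1 to 426.3 (limma adjusted p = 0.00951). Ivl and Sbsn were lower, at 42.4 to 58.5 against 15.2 to 32.8 and 654.5 to 1469.9 against 510.7 to 559.8 (limma adjusted p = 0.0215 and 0.00905).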

How the data were processed

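Expression was measured in 8 libraries of GFP+ keratinocytes (4 control, 4 p16). The 13 further labelled samples were not analysed here. Per the methods, 3′ reads were aligned with TopHat2 to GRCm38 and genes tested with DESeq2, and the submitters' processing notes also name HTSeq. Whether duplicate reads were collapsed is not given in the sources used here. Deposited signal values are reads per gene divided by a size factor per library, rounded by the authors to 1 decimal. Columns of group means, test statistics and p-values were not used, and no column lacked a sample. Dividing by the value of 1 read (0.74183 to 1.5278) gave whole reads for 100% of values within the rounding of the table. No library pair agreed within sampling noise. By chi-square per degree of freedom over genes, p16 replicate 4 differed from the other p16 libraries by 6.75 to 8.96. The other p16 pairs gave 3.05 to 3.31, and the control pairs 3.64 to 5.33. Floors in reads cover counting error only, and the 95% intervals are limma's, from the spread between libraries.

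The comparison used limma 3.58.1 with a trend in eBayes (R 4.3.3) on log2(normalized count + 1), for features with a mean of at least 1, with no replicate block, and called at a Benjamini-Hochberg adjusted p under 0.05. The added pseudocount makes fold changes of low genes too small. Exact permutation tests were two-sided. On simulated counts limma, testing 12864 genes, called 87% of genes changed by a log2 fold of 1 and 100% at 2. Among the genes it called, 5.08% had not been changed. Recovery was not split by read count, so these shares do not show how often changed genes at few reads would be called. Alternatives were a pseudocount of 0.1, other filters, total read and TMM scaling, edgeR 4.0.16 and DESeq2 1.42.0 on the recovered reads, a replicate block, unadjusted p, each library left out, and replicate 3 of both groups left out.

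The members, the partner and marker lists, the tests and the motifs were chosen with earlier results of these data known. Members were named when called, when the groups did not overlap, at an unadjusted p under 0.05, or as the largest count of a class, and partners when called or at an unadjusted p under 0.05. Values of other members were named after they were seen. Coordinates are from GENCODE M21 on GRCm38.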

Additional observations from a re-analysis of the deposited data

Results flagged for a closer look

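Among 74 groups of 4 libraries examined, 4 held 1 library far from the other 3 by Dixon's test, which by chance picks out about 1 in 20 groups. Nrp1 was at 4.0 normalized counts in the library labelled p16 replicate 1 and at 0.8 to 0.9 in the other p16 libraries. Plxna1 was at 483.5 in p16 replicate 4, above 462.0 to 465.3 in the others. Plxnb1 was at 314.7 in control replicate 4, above 264.1 to 271.4 in the other controls. Sdc1, a partner gene, was at 2464.2 in p16 replicate 4, above 2028.7 to 2034.9 in the others.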

How the results depend on the processing

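The calls of Sema3e and Efnb2 among the members, and of Dpysl3 and Farp1 among the partners, held in all 18 alternatives run for each. Members called higher (1 in the fit as reported) came to 2, Ephb4 and Robo1, with edgeR without a filter and with DESeq2, to 4 at an unadjusted p, to 0 without replicate 3 of both groups, and to between 0 and 2 with a library left out. Ephb4 was lost there without control replicate 2 or 3 or the library labelled p16 replicate 1 or p16 replicate 3. Members called lower (4) came to 12 at an unadjusted p, to 2 without replicate 3 of both groups and to between 2 and 5 with a library left out, the lowest count without control replicate 1 or 3. With total read scaling Sema6a and the partner Rgma were not called (limma adjusted p 0.0551 and 0.0660), and edgeR with its filter added the partner Fyn (adjusted p 0.0499848). Partners called higher (2) came to 4 unadjusted, 1 without replicate 3 of both groups and 1 to 3 with a library left out, and partners called lower (4) to 10, 1 and 1 to 4, with 1 left without control replicate 3 or p16 replicate 3. Calls over all features, 159 higher and 334 lower as reported, also fell, to 66 and 157, without replicate 3 of both groups. With a library left out they ran from 69 to 196 higher and from 177 to 343 lower. Same-numbered control and p16 libraries had correlations of their deviations from the group means of 0.00437 to 0.0827, and differently numbered ones of -0.0997 to 0.058. These values do not settle whether same-numbered libraries shared an experiment, and the fit as reported took no pairs. With the replicate block 2 members were called higher (Robo1 added, adjusted p 0.048) and 4 lower, and 2 partners higher and 4 lower. Over all features the block called 216 higher and 392 lower, beside 159 and 334 as reported. With a library left out, 4 uncalled log2 fold changes near 0 turned sign, with ranges of -0.024 to 0.095 for Efna3, -0.129 to 0.003 for Efnb1, -0.005 to 0.210 for Sema5a (-0.030 without replicate 3 of both groups) and -0.044 to 0.132 for Plxna1. The causes were not tested. Genes at a few reads, such as Nrp1 and Plxnd1, are limited by depth.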
